A study of Mus musculus with 15 samples.

Results

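The 3 genes described here encode the receptors of the cytokines BAFF and APRIL: Tnfrsf13b (TACI), Tnfrsf13c (BAFF receptor) and Tnfrsf17 (BCMA). They were taken by gene symbol from the 19938 genes measured by a probe set with exactly 1 symbol, and each of the 3 had 1 such probe set. Expression was measured on 15 arrays of germinal centre B cells sorted from the spleens of female mice at day 10 of an immune response. All groups were SwHEL B cells, which carry a knocked-in antigen receptor against hen egg lysozyme and the congenic marker CD45.1. They had been transferred into C57BL/6J recipients (CD45.2), which were then immunized with sheep red blood cells coupled to the lysozyme mutant HEL3x. Donor cells that were IgG1+ and CD38 low were split by zone, into light zone cells (CD86 high, CXCR4 low) and dark zone cells (the reverse), and by affinity. The groups are Dzhi (dark zone, high affinity, 4 arrays), Dzlo (dark zone, low affinity, 4 arrays), Lzhi (light zone, high affinity, 3 arrays) and Lzlo (light zone, low affinity, 4 arrays). The cells are of 1 engineered specificity, and the labels do not say how many mice were pooled or whether each sample came from separate mice, so each p-value covers only spread among the samples at hand, which may be technical.

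BAFF and APRIL are ligands of the TNF family that keep B cells and plasma cells alive. The BAFF receptor binds BAFF and, through TRAF3 and the kinase NIK, drives non-canonical NF-kappaB signalling that mature B cells need to survive. TACI binds both ligands and is known for antibody class switching and for restraint of B cell numbers, while BCMA, which binds APRIL best, is known from plasma cells. Germinal centre B cells divide in the dark zone and are selected by antigen and T cell help in the light zone. This design addresses the transcript level of survival receptors in each zone and in cells of different affinity. The arrays do not measure receptor protein.

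Tnfrsf13b and Tnfrsf13c lay higher in the light zone array of every same-experiment pair, as did 2.06% of all genes, and Tnfrsf17 did not. None of the 3 zone differences passed over all genes. The stretches before their start sites are shown for comparison, and a link to expression was not tested. They are the 250 bases before the annotated start of each gene, from RefSeq on GRCm38.p6, printed 5′ to 3′ on the strand of the gene, with capitals for matches to the motifs searched. They lie at chr11:61126505-61126754 (plus strand, Tnfrsf13b), chr15:82224381-82224630 (minus strand, Tnfrsf13c) and chr16:11313559-11313808 (plus strand, Tnfrsf17).
Tnfrsf13b: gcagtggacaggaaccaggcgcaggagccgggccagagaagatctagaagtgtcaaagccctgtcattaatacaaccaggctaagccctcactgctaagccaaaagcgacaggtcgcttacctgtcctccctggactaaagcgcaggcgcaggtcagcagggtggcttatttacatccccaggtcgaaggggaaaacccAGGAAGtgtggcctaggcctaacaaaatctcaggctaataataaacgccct
Tnfrsf13c: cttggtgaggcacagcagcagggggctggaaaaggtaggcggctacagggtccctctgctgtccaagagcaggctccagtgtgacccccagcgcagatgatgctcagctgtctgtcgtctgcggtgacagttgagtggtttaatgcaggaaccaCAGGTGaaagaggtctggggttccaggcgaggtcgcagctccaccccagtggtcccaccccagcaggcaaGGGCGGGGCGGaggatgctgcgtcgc
Tnfrsf17: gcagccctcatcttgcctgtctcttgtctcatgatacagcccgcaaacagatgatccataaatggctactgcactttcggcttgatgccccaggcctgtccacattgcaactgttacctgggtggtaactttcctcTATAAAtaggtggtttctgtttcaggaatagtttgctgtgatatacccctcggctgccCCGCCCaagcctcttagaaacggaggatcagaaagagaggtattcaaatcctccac
The search covered both strands. Its motifs were the TATA box, spelled TATAAA; the GC box, spelled GGGCGG; the core bound by ETS factors, spelled AGGAAG; an E-box of the E2A type, spelled CAGGTG; the AP-1 site, spelled TGANTCA; the octamer, spelled ATGCAAAT; and the consensus for NF-kappaB. The Tnfrsf13b stretch, with a GC content of 54%, held 1 ETS core, a match found in 29.5% of 32851 promoters of the same length. The Tnfrsf13c stretch was richer in GC, at 63.2%, and held 1 CAGGTG (17.2% of promoters) and 2 GC boxes that overlap each other (32.7% of promoters hold at least 1). The Tnfrsf17 stretch, with a GC content of 49.2%, held 1 TATAAA (12.4% of promoters) and, on the other strand, 1 GC box. No motif was matched in all 3, and the letters searched for AP-1, the octamer and NF-kappaB, found in 6.75%, 1.6% and 3.9% of promoters, did not occur in these windows.

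The deposited values are log2 values. Array medians over all probe sets ran from 5.57 to 5.74, and the number of arrays limits the precision. The 9 measured germinal centre B cell markers of 12, among them Bcl6, Fas and Rgs13, lay above 7.7 on every array, and of the sort markers Cd86 was higher by 1.04 ± 0.11 (SE) and Cxcr4 lower by 0.69 ± 0.16 in light zone cells, of which Cxcr4 did not pass (adjusted p = 0.152 in limma). Cd86 also differed in level between the dark zone groups, at 9.27 to 9.998 in Dzhi and 10.002 to 10.41 in Dzlo. In the light zone it read 10.81 to 10.97 in Lzhi and 10.74 to 11.12 in Lzlo. The sample descriptions carry an experiment code, grouped here as experiments A to D. The spelling of code B in the 2 zones is not the same, and Lzhi has no array of experiment D. Both low-affinity arrays of experiment D were above every high-affinity array in T cell, NK cell, neutrophil and myeloid markers, Lzlo of experiment C in T cell and myeloid markers, and Dzlo of experiment C in T cell markers. The 11 measured T cell markers averaged 1.54 above their mean over all arrays in Lzlo of experiment D and 0.66 in Lzlo of experiment C, against -0.36 and -0.16 in Lzlo of A and B; Dzlo had 0.37, 0.16, -0.39 and -0.27 in the same order of experiments. The 12 neutrophil markers stood at 2.98 in Lzlo and 1.67 in Dzlo of experiment D, and at 0.20 in Lzlo and -0.82 in Dzlo of experiment C.

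Of the 3 receptors, Tnfrsf13b was the one whose values came near to separating by zone. The share of all genes that come as near was not counted. Tnfrsf13b read 7.07, 7.22, 7.28 and 7.002 in Dzhi and 7.49, 6.96, 6.98 and 7.05 in Dzlo. In the light zone it read 7.34, 7.35 and 7.35 in Lzhi and 7.71, 7.35, 7.88 and 7.77 in Lzlo. All 7 light zone values lay above 7.34, and 7 of the 8 dark zone values lay below that level; Dzlo replicate 1 alone, at 7.49, reached into the light zone range. By group mean ± SD the order was Dzlo 7.12 ± 0.25 (n = 4), Dzhi 7.14 ± 0.13 (n = 4), Lzhi 7.35 ± 0.004 (n = 3) and Lzlo 7.68 ± 0.23 (n = 4), in which the dark zone groups did not differ beyond their spread.

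Tnfrsf13c read 9.96, 10.01, 10.59 and 10.03 in Dzhi and 10.29, 9.86, 10.46 and 10.71 in Dzlo. In the light zone it read 10.30, 10.24 and 10.63 in Lzhi and 10.44, 10.20, 10.50 and 10.85 in Lzlo. All 4 groups overlapped, and no neighbours in the order Dzhi (10.14 ± 0.30), Dzlo (10.33 ± 0.36), Lzhi (10.39 ± 0.21) and Lzlo (10.49 ± 0.27, each mean ± SD) differed beyond their spread. Tnfrsf17 read 5.69, 5.604, 5.04 and 5.36 in Dzhi, 5.14, 5.36, 5.17 and 4.99 in Dzlo, 5.42, 5.42 and 5.15 in Lzhi and 4.73, 5.11, 5.04 and 5.31 in Lzlo. Its order ran from Lzlo (5.05 ± 0.24) over Dzlo (5.16 ± 0.15) and Lzhi (5.33 ± 0.16) to Dzhi (5.42 ± 0.29), with neighbours again within their spread. Its values lay below the array's median over the 19938 genes tested in 15 of 15 arrays. Those medians ran from 5.672 to 5.864. In this range RMA compresses differences, and the table has no detection calls, so BCMA transcript can be called neither present nor absent here.

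**Figure D1:**
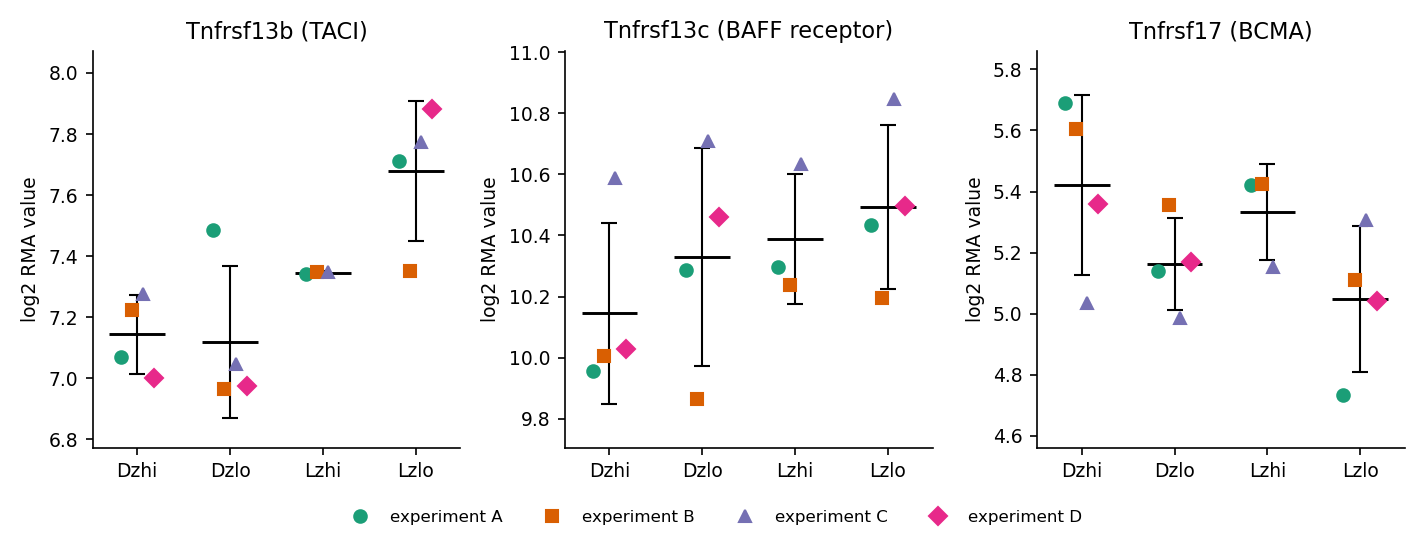
Log2 RMA value of each receptor gene on each of the 15 arrays, by group, with symbols for the experiment; the wide bar is the group mean and the error bar the SD, and levels are not comparable between the panels, which have their own axes. The Lzhi and Lzlo values of Tnfrsf13b lie above 7.34, with Dzlo replicate 1 the dark zone array that overlaps them, while the groups of Tnfrsf13c and Tnfrsf17 overlap throughout.

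The first comparison set light zone against dark zone cells over both affinities. Tnfrsf13b, the TACI gene, was 0.38 ± 0.10 (SE) higher in the light zone on the log2 scale, a 1.3-fold difference (95% interval 1.12 to 1.52). In limma its unadjusted p was 0.00225, rank 154 of 19938 genes, and its adjusted p was 0.292, so it did not pass. An exact permutation test of this gene alone, two-sided over the 15 arrays, gave p = 0.00404. Its splits took no account of affinity or experiment. Tnfrsf13c, the BAFF receptor gene, had a difference of 0.20 ± 0.15 (adjusted p = 1 in limma, exact p = 0.168), and Tnfrsf17 one of -0.10 ± 0.12 (adjusted p = 1, exact p = 0.362). So 0 of the 3 receptors passed, in a comparison in which limma called 31 genes, or 0.155% of those tested (4.38% had an unadjusted p under 0.05, as Tnfrsf13b did). The 95% intervals were -0.11 to 0.52 for Tnfrsf13c and -0.35 to 0.15 for Tnfrsf17, so the former includes a difference of the size measured for Tnfrsf13b.

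Pairing arrays of the same experiment gave 7 pairs of a light zone and a dark zone array, 2 of which join the forms of code B. Tnfrsf13b was higher in the light zone in 7 of 7 pairs, by 0.27, 0.12 and 0.07 in the high-affinity pairs of experiments A to C and by 0.23, 0.39, 0.73 and 0.91 in the low-affinity pairs of experiments A to D. Tnfrsf13c was also higher in 7 of 7, by 0.34, 0.23 and 0.05 and by 0.15, 0.33, 0.14 and 0.04. The pairs in experiments C and D were the widest for Tnfrsf13b and the narrowest for Tnfrsf13c among low-affinity cells. Tnfrsf17 was higher in 2 of 7, both of experiment C. Of all genes, 2.06% lay above 0 in every pair. With the experiment code as a block the Tnfrsf13c difference was 0.21 ± 0.08, with an unadjusted p of 0.0292 in limma, and it did not pass there either (adjusted p = 0.596). No receptor passed with that block, where limma called 0.451% of genes in this comparison, 0.0552% in high-affinity cells, 0.150% in low-affinity cells, and 0% in the affinity comparisons.

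**Figure D2:**
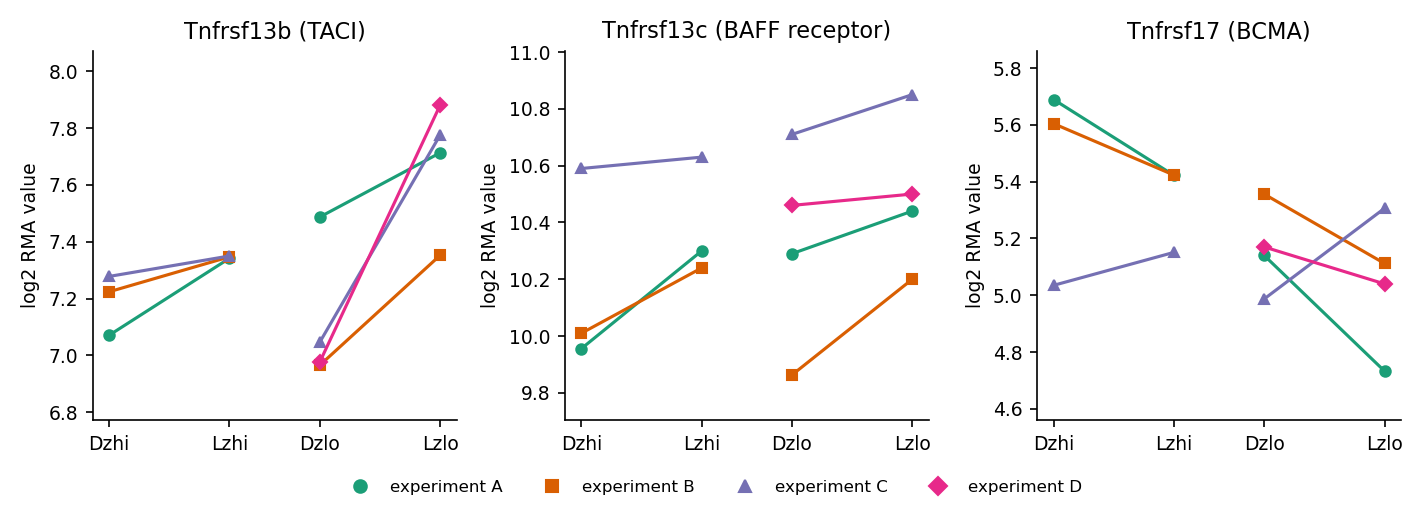
Log2 RMA value of each receptor gene in dark zone and light zone arrays, with a line between the arrays of the same experiment, for high-affinity cells (left of each panel) and low-affinity cells (right). All 7 lines slope upward to the light zone for Tnfrsf13b and Tnfrsf13c, and 2 of 7 for Tnfrsf17; the Dzhi array of experiment D has no partner and is not drawn.

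Within high-affinity cells the zone difference of Tnfrsf13b was 0.20 ± 0.15, and the Lzhi and Dzhi values did not overlap. It did not pass in limma (adjusted p = 0.999, exact permutation p = 0.0571), nor did Tnfrsf13c at 0.24 ± 0.22 or Tnfrsf17 at -0.09 ± 0.17. In this comparison 3 genes or 0.0150% passed and 2.80% had an unadjusted p under 0.05. Groups that do not overlap, with the light zone higher, were found for 1.84% of genes. Within low-affinity cells it was 0.56 ± 0.14, a 1.48-fold difference, with an unadjusted p of 0.00124 in limma. The adjusted p over all genes was 0.449 in limma (exact permutation p = 0.0571), so it did not pass, nor did Tnfrsf13c at 0.16 ± 0.20 or Tnfrsf17 at -0.12 ± 0.16, in a comparison that called 2 genes or 0.0100%, with 3.53% at an unadjusted p under 0.05. With 1 array left out, the Tnfrsf13c value ran from 0.01 (without Dzlo replicate 2) to 0.29 (without Dzlo replicate 4) and that of Tnfrsf17 from -0.20 (without Lzlo replicate 4) to -0.01 (without Lzlo replicate 1). The zone difference of Tnfrsf13b was thus larger in low-affinity cells in these arrays, and the test of that difference, the interaction, gave -0.36 ± 0.20 (unadjusted p = 0.101, adjusted p = 1 in limma), so it is not shown to depend on affinity. Limma called 0% of genes for the interaction, with 1.33% at an unadjusted p under 0.05, and Tnfrsf13c and Tnfrsf17 had interaction values of 0.08 ± 0.29 and 0.03 ± 0.23.

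Markers of T cells and neutrophils also lay mostly higher in Lzlo than in Dzlo. In Lzlo against Dzlo, 9 of 11 T cell markers and 11 of 12 neutrophil markers lay above 0, with medians of 0.29 and 0.62. The T cell list ranged from -0.36 to 1.54 in Lzlo, from -0.39 to 0.37 in Dzlo, from -0.44 to -0.18 in Lzhi and from -0.22 to -0.10 in Dzhi, and since RMA values have no zero no marker could be called absent. The 11 naive and marginal zone B cell markers were also highest in Lzlo, between 0.14 and 0.59, against -0.36 to 0.16 in the other groups. In Dzlo of experiments C and D, with T cell marker levels of 0.16 and 0.37, Tnfrsf13b read 7.05 and 6.98. In Lzlo of experiments A and B, with levels of -0.36 and -0.16, it read 7.71 and 7.35. The part of RNA from T cells, neutrophils or naive B cells in the Tnfrsf13b result was not tested. Without the low-affinity arrays of experiments C and D its difference among low-affinity cells was 0.31 ± 0.20 (adjusted p = 1 in limma) and that over both affinities 0.25 ± 0.12 (unadjusted p = 0.0656), with the interaction at -0.10 ± 0.25. Over all 15 arrays the correlation of Tnfrsf13b with the T cell list was 0.46 (Pearson), 0.004 (Spearman) and 0.25 for deviations from group means. It was -0.60 without the 2 arrays farthest from the median of Tnfrsf13b. Those 2 were Lzlo of experiments C and D, which also had the highest T cell markers, so that value leaves out the arrays in question. In the same order it was 0.635, 0.457, 0.251 and 0.182 with the naive and marginal zone B cell list. With the neutrophil list it was 0.209, -0.05, 0.0655 and -0.467. In bulk samples fewer cells of a type and less RNA per cell cannot be told apart.

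**Figure D3:**
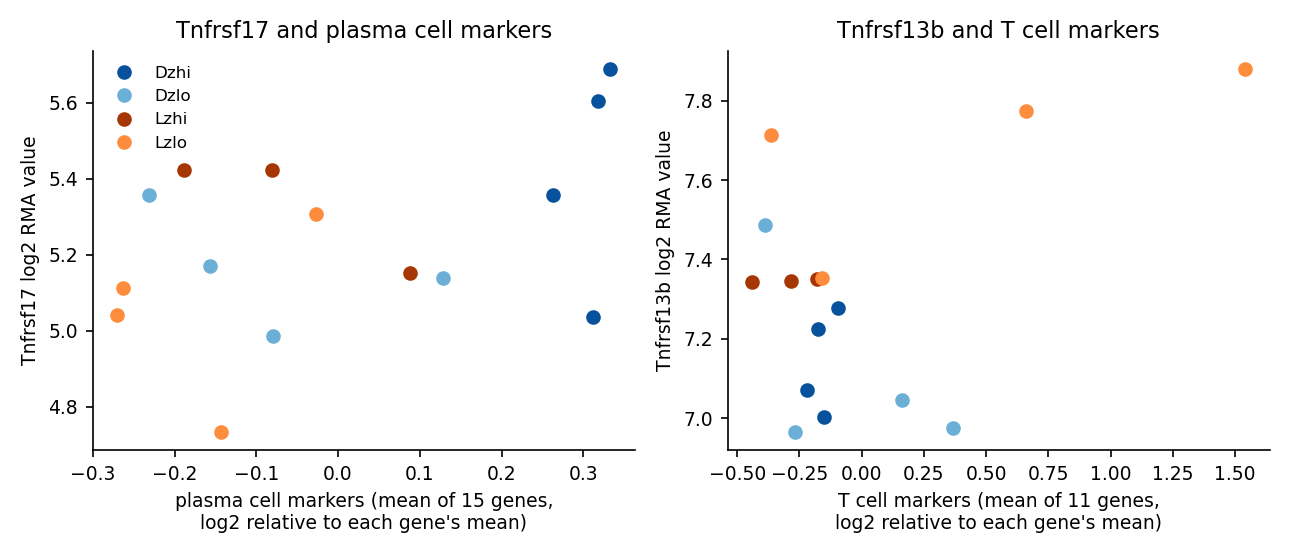
Log2 RMA value of Tnfrsf17 against the mean level of 15 plasma cell markers (left) and of Tnfrsf13b against that of 11 T cell markers (right), 1 point per array, coloured by group. The 4 Dzhi arrays have the highest plasma cell markers over a wide range of Tnfrsf17, and the Lzlo arrays of experiments C and D the highest T cell markers, at 0.66 and 1.54.

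The affinity comparisons asked whether cells of high and low affinity differ in the receptors, in each zone and over both. In the light zone Tnfrsf13b was lower in high-affinity cells by 0.33 ± 0.15 on the log2 scale, with values that did not overlap: the highest Lzhi array read 7.350 and the lowest Lzlo array 7.352, so the groups are separated by a gap of under 0.01. It did not pass in limma (unadjusted p = 0.0433, adjusted p = 1, exact permutation p = 0.0571), and 2.29% of genes had groups that do not overlap in this direction. The 3 same-experiment pairs gave -0.37, -0.01 and -0.42, and without the low-affinity arrays of C and D the value was -0.19 ± 0.18. In the dark zone Tnfrsf13b differed by 0.03 ± 0.14 (exact permutation p = 0.829) and pairs ran both ways, from -0.42 to 0.26.

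Tnfrsf17 had the largest affinity value of the 3 receptors over both zones, 0.27 ± 0.12 higher in high-affinity cells, a 1.21-fold difference, and it did not pass either (unadjusted p = 0.0349, adjusted p = 0.999 in limma, exact permutation p = 0.0258). High-affinity arrays were higher in 6 of 7 pairs, by 0.69, 0.31 and -0.16 in the light zone and by 0.55, 0.25, 0.05 and 0.19 in the dark zone, where the one exception is experiment C in the light zone; 6.70% of genes lay above 0 in at least 6 of 7, and 3.94% in the 4 dark zone pairs. The 15 plasma cell markers other than Tnfrsf17 stood higher in Dzhi, between 0.26 and 0.33 above their mean, than in the other groups, between -0.27 and 0.13. The correlation of Tnfrsf17 with these markers over the 15 arrays was 0.42, and -0.14 for deviations from group means. Within Dzhi the markers spanned a narrow range, so the second value says little there. The part of plasma cell RNA in the Tnfrsf17 value was not tested. Tnfrsf13c had affinity differences of -0.10 ± 0.22 in the light zone and -0.18 ± 0.20 in the dark zone. Over the 4 affinity and interaction comparisons limma called 0 genes, or 0% of those tested, with 797 (4.00%), 320 (1.60%), 857 (4.30%) and 266 (1.33%) at an unadjusted p under 0.05 for the light zone, the dark zone, both zones and the interaction. In all, 0 of the 21 member comparisons passed, and 4 had an unadjusted p under 0.05.

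**Figure D4:**
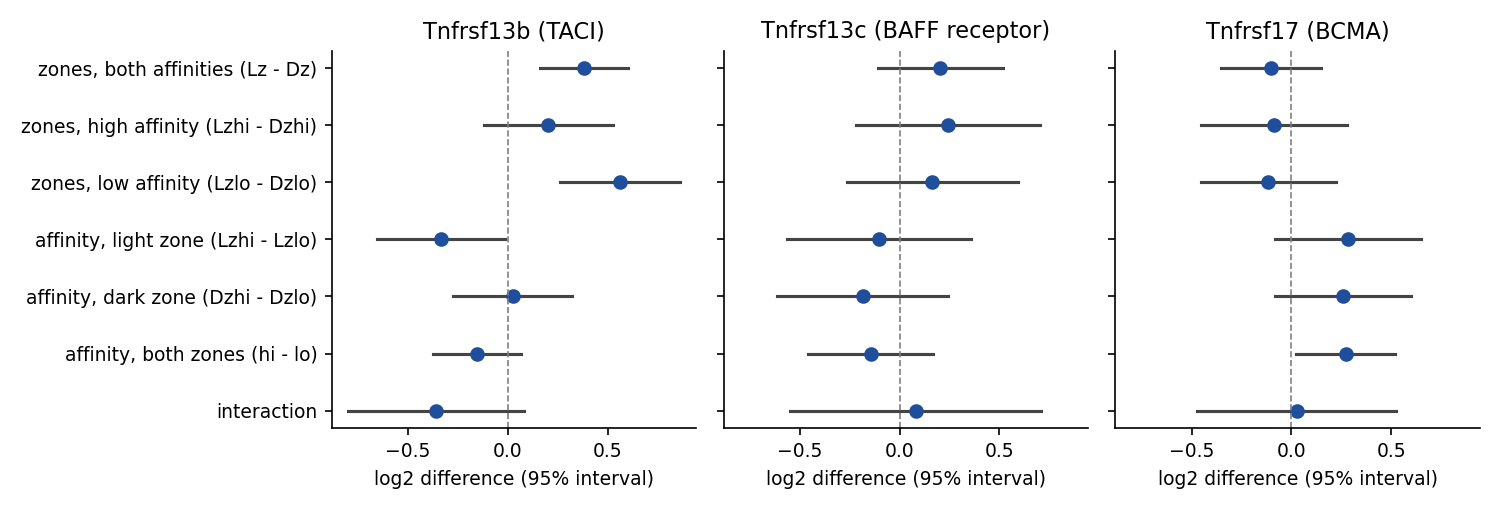
Log2 difference of each receptor gene in each of the 7 comparisons (points) with its 95% interval from the limma fit (lines); the dashed line is 0. The intervals of Tnfrsf13b exclude 0 for the zone difference over both affinities, that among low-affinity cells and the affinity difference in the light zone, and that of Tnfrsf17 for the affinity difference over both zones; none passed over all genes.

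The receptors differed in what their spread followed. Group membership took 67.3% of the sum of squares of Tnfrsf13b over the 15 arrays and the experiment code 6.38%. For Tnfrsf13c the order was reversed, with 21.1% by group and 67.7% by experiment, and for Tnfrsf17 the shares were 37.5% and 15.6%. The medians over all genes were 14.3% by group and 32.4% by experiment, the same order as for Tnfrsf13c. A group share at least that of Tnfrsf13b was found for 0.597% of genes, and an experiment share at least that of Tnfrsf13c for 5.19%. Tnfrsf13c was highest in experiment C in all 4 groups, 0.35 above the group means on average, and lowest in B at -0.26; 468 genes, or 2.35%, were highest in experiment C throughout. The cause was not tested, and these shares describe 15 arrays with no test. Between members, Tnfrsf13c and Tnfrsf17 had a correlation of -0.60 (Spearman -0.61, n = 15) and Tnfrsf13b and Tnfrsf13c one of 0.49, values that share arrays and experiments.

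Likeness was measured as the correlation of log2 values over the 15 arrays, among 17112 named genes. Those of Tnfrsf13b were Dpy19l3 (r = 0.87), Rnf122 (0.86), the Src-family kinase gene Fgr (0.86), Ppp1r18 (0.86) and the epoxide hydrolase gene Ephx1 (0.85), with correlations within groups between 0.53 and 0.66. For Tnfrsf13c they were Lpcat3 (0.95), the MHC class II gene H2-Eb1 (0.93), Myl12b (0.93), Laptm5 (0.93) and Nfe2l1 (0.92), and within groups these correlations were between 0.91 and 0.97. For Tnfrsf17 they were Mcpt2, Tbata, Obox6, Esp1 and Crnde, with r between 0.77 and 0.81, and between 0.69 and 0.78 within groups. Tnfrsf17 itself lay below the array's median on all 15 arrays, and whether its list reflects dim signal was not tested. These are chosen as the highest of many, so they describe the arrays.

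Of the ligands, Tnfsf13b, which encodes BAFF, had a zone difference of 0.08 ± 0.08 (adjusted p = 1 in limma); Tnfsf13, which encodes APRIL, shares its probe set with other genes and is not analysed here. The proteoglycan gene Sdc1, a plasma cell marker that binds APRIL, had -0.24 ± 0.10, with the same reading, 5.6339, on several arrays. Among the shedding and adaptor genes, Aph1b, a gamma-secretase subunit, had -0.18 ± 0.09 and the protease gene Adam17 0.28 ± 0.18. In these lists 0 of 4 and 0 of 8 measured genes passed, where 0.155% of all genes tested did.

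The signalling and target lists held the 2 pathway genes that changed. The lists were those of the TRAF and non-canonical NF-kappaB arm (10 measured), the canonical arm (11), the SYK and PI3K arm (13) and survival and target genes (10), and with the ligand and shedding lists they hold 56 measured genes. In the zone comparison 2 of the 56 passed in limma, where 0.155% of all genes tested did. Both were higher in light zone cells: Nfkbia, an inhibitor of NF-kappaB that NF-kappaB induces, and Fcer2a, encoding CD23. Fcer2a and Cr2 stand in both the target list and the list of naive and marginal zone B cell markers, so these lists are not independent. Nfkbia rose by 0.91 ± 0.13 (adjusted p = 0.01 in limma), from between 6.77 and 7.36 in the dark zone arrays to between 7.80 and 8.45 in the light zone. Fcer2a rose by 1.69 ± 0.13 (adjusted p = 9.56e-05), from between 7.98 and 9.70 to between 10.02 and 11.06. The Nfkbia call was lost with the code as written as block (adjusted p = 0.0675 in limma) and without the low-affinity arrays of C and D (adjusted p = 0.0793), though the difference was no smaller there, at 0.95 and 1.02.

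Other genes of these lists had values that did not pass. In the non-canonical arm, Birc3, a ubiquitin ligase that works with the TRAFs, had 0.74 ± 0.17 (adjusted p = 0.149 in limma) and Traf5 -0.40 ± 0.14. In the canonical arm Tnfaip3, an NF-kappaB inhibitor, had 0.47 ± 0.18. In the PI3K arm Pik3ap1 had 0.41 ± 0.12 and Prkcb 0.45 ± 0.12, which passed with the experiment block (adjusted p = 0.0208 and 0.0284 in limma), and among the targets Cr2, encoding CD21, had 0.89 ± 0.19 (adjusted p = 0.133). Of the other 24 TNF receptor genes 0 passed, where 0.155% of all genes tested did. Among them Cd40 had 0.65 ± 0.14 (adjusted p = 0.136, or 0.0376 with the block in limma) and Tnfrsf18, encoding GITR, 0.57 ± 0.14 (adjusted p = 0.187 in limma).

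As a whole the 56 pathway genes lay above 0 in the zone comparison in 36 cases, with a median of 0.08, against 48.0% of all genes and a median of -0.01. The count was 26 of 56 (median -0.03) among high-affinity cells, where 48.8% of all genes lay above 0, and 41 of 56 (median 0.20) among low-affinity cells, where 48.6% did and where markers of other cells were also higher; this difference between affinities was not tested. Over both affinities the median was 0.04 without Dzlo replicate 2 and 0.13 without Lzlo replicate 2. In high-affinity against low-affinity light zone cells, 14 of 56 lay above 0, with a median of -0.23, against 49.9% and -0.0003 for all genes, and 0 passed in limma. The count was 17 with each array centred on its median, and 13 without the low-affinity arrays of experiments C and D, where the median was -0.18. Of the 13 genes of the SYK and PI3K arm 1 lay above 0 (median -0.25), and of the 10 survival and target genes 1 did (median -0.32). Over the same light zone arrays 0 of 11 T cell markers and 1 of 11 naive and marginal zone B cell markers lay above 0, with medians of -0.66 and -0.52. Of the other marker lists, 1 of 12 neutrophil, 1 of 8 NK cell and 3 of 12 myeloid markers lay above 0, with medians of -1.19, -0.29 and -0.18. For germinal centre B cell, plasma cell and erythroid markers it was 4 of 9, 10 of 15 and 0 of 4. Their medians were -0.02, 0.04 and -0.09. The part of other cells in the pathway counts was not tested. In the dark zone 21 of 56 pathway genes lay above 0, with a median of -0.07, against 50.4% of all genes. That count moved with the arrays used: it was 27 (median -0.0005) without Dzhi replicate 1, 28 (median -0.0002) without experiment D, 26 without the low-affinity arrays of C and D, and 19 (median -0.14) without Dzlo replicate 2. Genes share arrays and experiments, so these counts describe the lists.

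**Figure D5:**
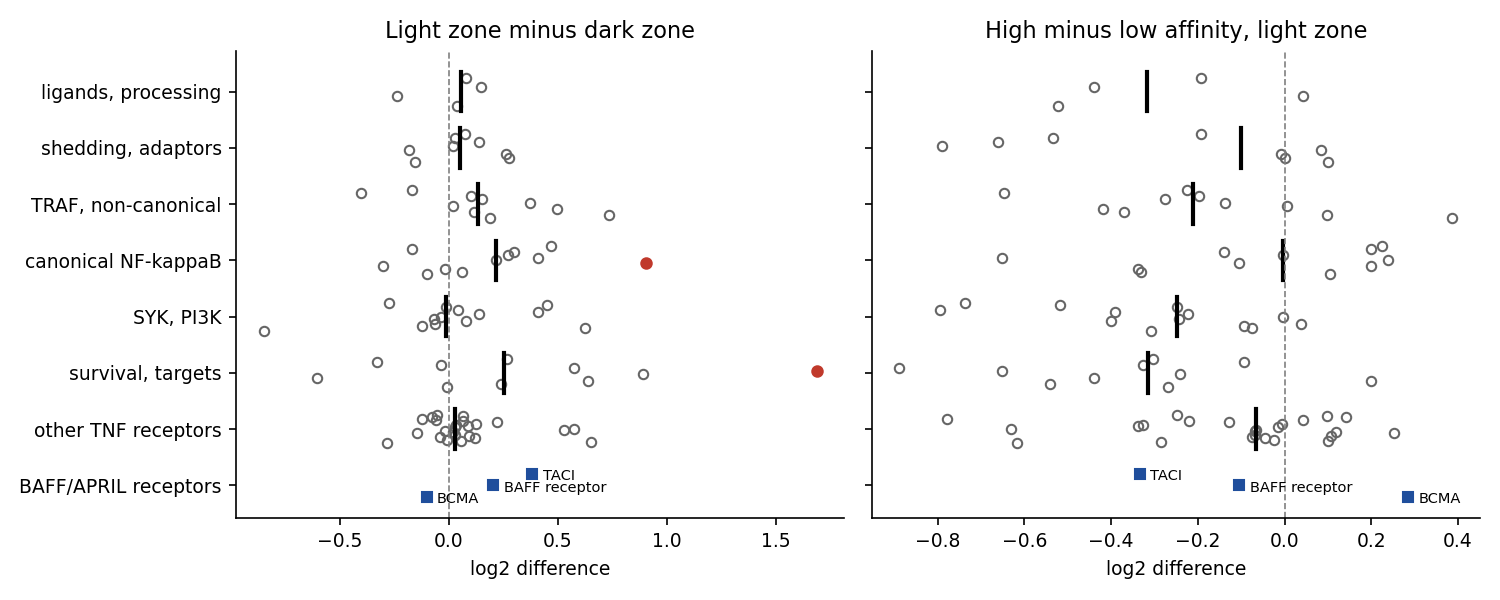
Log2 differences of the measured genes of each pathway list and of the other TNF receptors between zones (left) and in high-affinity against low-affinity light zone cells (right), 1 circle per gene, with the list's median as a bar, filled red circles for genes that passed (Nfkbia and Fcer2a) and squares for the 3 receptors. In the zone comparison 36 of 56 pathway genes lie above 0, and in the light zone affinity comparison 14 of 56.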

How the data were processed

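Per the labels' protocols, total RNA of 15 sorted samples was amplified, labelled with biotin and hybridised to 1 array each. The authors deposited log2 values made with RMA (background correction, quantile normalization and probe summary), per the submitters' processing notes, which name genome build mm8; software and version: not given in the sources used here. Of 28853 probe sets, 21789 had 1 gene, 1621 several and 5443 none in the platform annotation; 21698 matched by Entrez ID. Probe sets with 1 symbol were kept, and the highest mean represented a gene, which left 19938 genes. The 18 list genes that were not matched are not analysed here. All 15 arrays were distinct (correlations 0.9399 to 0.9933).

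Groups came from the titles. Limma 3.58.1 in R 4.3.3 fitted 4 group means (11 residual degrees of freedom), with Benjamini-Hochberg adjustment over all genes in each of 7 comparisons. The exact permutation tests were two-sided and unadjusted and took no account of experiment. With 3 against 4 or 4 against 4 arrays, the smallest p that such a permutation test can give was 0.0286. Named genes were the 3 receptors, the ligands, genes of the lists that passed, and the 2 with the largest moderated t per list in the zone comparison; the 5 most correlated genes were named per receptor. The receptors and lists were chosen with earlier results of these data known. Deviations from group means correlated at 0.288 on average between the 21 pairs of arrays that share an experiment code (16 above 0.1), and at -0.082 in the other 63. The code was used as a block in an alternative fit, which merges the forms of code B. The steps were tested on simulated data. Figures used matplotlib 3.10.9.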

Additional observations from a re-analysis of the deposited data

Results flagged for a closer look

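In 51 groups of 4 arrays, 4 held an array far from the other 3 (gap over range above 0.829); chance gives about 1 in 20. Tnfrsf13b read 7.487 in Dzlo replicate 1, the one dark zone array in the light zone range. Tnfrsf13c read 10.59 in Dzhi replicate 3, an array of experiment C, in which that gene was highest in all 4 groups. Sdc1, a plasma cell marker gene that binds APRIL, read 5.225 in Lzlo replicate 4. It had the same value, 5.6339, in Lzlo replicates 2 and 3, Lzhi replicates 2 and 4 and Dzhi replicate 2, so this flag rests partly on tied values. Aph1b, a gamma-secretase subunit gene, read 5.734 in Dzhi replicate 2.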

How the results depend on the processing

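The 21 member comparisons were recomputed 621 times, and 0 passed over all genes in limma (lowest adjusted p = 0.118); 599 kept their direction and 22 changed sign, all of values far from the threshold. Tnfrsf13b in the dark zone affinity comparison was -0.007857 with array weights, -0.02209 when the 2 low-affinity arrays of experiment D were left out, -0.08217 without those of C and D (chosen after seeing the data) and -0.02576 to 0.1483 with 1 array left out. Tnfrsf13c affinity values were 0.06993, 0.07373 and 0.07183 (dark zone, light zone, both) without the low-affinity arrays of C and D, and -0.2261 to 0.0133 in the light zone with 1 array left out. Its interaction was -0.0003333 without experiment D and -0.04544 to 0.2362 with 1 array left out. The Tnfrsf17 interaction was -0.0172 with the title number as replicate block and -0.103 to 0.1163 with 1 left out, and its zone difference among high-affinity cells -0.2182 to 0.00105. Sample pairing by block changed no receptor's call.

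Counts of all genes called moved more. Over both affinities the zone count was 31, and 49 with quantile normalization, 68 with array weights, 90 with the experiment code as replicate block, 83 with the title number, 78 with a random block, 49 at adjusted p under 0.1, 8 without the low-affinity arrays of C and D, and 18 to 37 with 1 array left out. Among high-affinity cells it was 3, and 5, 7 and 5 (quantile, all probe sets, array weights), 11, 1, 7 and 6 (block merged, as written, title number, random), 1 (only the groups compared), 6 (without D), 5 (without its 2 low-affinity arrays), 1 (without those of C and D), 5 (adjusted p under 0.1) and 1 to 4 with 1 left out. Among low-affinity cells it was 2, and 11, 1, 8, 6 and 16 (quantile, all probe sets, mean of probe sets, trend and robust, array weights), 30, 11, 18 and 18 (the same blocks), 0 (only the groups compared), 4 (without D), 13 (adjusted p under 0.1) and 0 to 4 with 1 left out. In the dark zone affinity comparison it was 0, and 1 with quantile normalization and 3 with all probe sets. Over both zones it was 0, and 2, 1, 1 and 1 with quantile normalization, array weights, the title number block and the fit lacking the 2 low-affinity arrays of D. Pathway genes called between zones were 2, and 4, 1 and 5 (block merged, as written, title number) and 1 without the low-affinity arrays of C and D. The causes were not tested. The table holds no measure of signal over background, so what dim signal limits could not be set for Tnfrsf17.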
